A study of Mus musculus with 6 samples.

Results

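Mouse B-cell lymphomas that carried one of 2 short hairpin RNAs against Ezh2 were compared directly with each other. Of the 6 arrays of the series, the 4 lymphoma arrays were used for the comparison, chosen by their titles: 2 of lymphomas with the hairpin shEzh2.781 and 2 of lymphomas with shEzh2.556. The other 2 arrays, from sorted premalignant splenic B cells of Em-Myc mice, entered no test, and their levels are given beside those of the lymphomas as a reference. All 6 arrays carry the Em-Myc transgene, and all lymphomas analysed here also carry an Ezh2 hairpin. The hairpin groups were sorted lymphoma cells, purified with a bead kit that removes CD43-positive cells and, per the labels, at least 95% positive for B220 and GFP. The characteristics name the premalignant cells as normal B cells, while titles and source name them as Em-Myc cells; the latter was used. No age, strain background or vector is given in the labels, and each hairpin is represented only by its own tumours, so the effect of a hairpin and the differences between the tumours sampled cannot be told apart. Whether both arrays of a hairpin stem from different mice is not stated; the p-values therefore capture only the spread among these particular samples, part of which may be technical.

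In the Em-Myc model the enhancer of the antibody heavy chain locus puts Myc under B-cell control, and clonal B-cell tumours arise after a premalignant phase of B-cell expansion. Ezh2 is the catalytic subunit of polycomb repressive complex 2 (PRC2), which methylates lysine 27 of histone H3. The mark is read by polycomb repressive complex 1 (PRC1) and is known for keeping developmental and lineage genes silent. Hairpins against different stretches of a transcript share the intended target but differ in sequence, and their direct comparison asks how far tumours made with them differ.

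Values are log2 signals of Affymetrix Mouse Gene 1.0 ST arrays, 1 probe set per gene, and a difference is the mean of shEzh2.781 minus the mean of shEzh2.556, so that positive values are higher with shEzh2.781. A difference of 1 is a 2-fold change. Differences come with the standard error (SE) and with the p-value of limma's moderated test, adjusted by Benjamini-Hochberg over all 19190 genes outside chromosomes X and Y. Genes with an adjusted p under 0.05 are called.

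Lymphomas with the same hairpin were more alike than lymphomas with different hairpins. Across genes, which are not independent replicates, the Pearson correlation was 0.9963 between the shEzh2.781 arrays, 0.9956 between the shEzh2.556 arrays and 0.9865 to 0.9882 for the pairs across hairpins. Between the shEzh2.781 arrays 58 genes differed by at least 1, between the shEzh2.556 arrays 23, and across hairpins 253 to 330. The median signal of an array was 6.75 to 6.91 over all its probe sets. The shEzh2.781 arrays differed from each other along chromosomes 15 and 19. Of 335 well expressed genes on chromosome 15 (a mean of at least 8 with a hairpin), 85.4% were higher in array 1 than the median difference of all such genes, and of 298 on chromosome 19 only 11.1% were. On the other autosomes the share was 40.2% to 55.4%. The median shifts were 0.13 for chromosome 15 and -0.15 for chromosome 19, and against the premalignant mean they were 0.11 and -0.15 in array 1 and -0.02 and 0.01 in array 2. Between the shEzh2.556 arrays the same chromosomes stood at 58.5% and 52.7%. The number of genes called below was 1878 without these chromosomes.

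**Figure D1:**
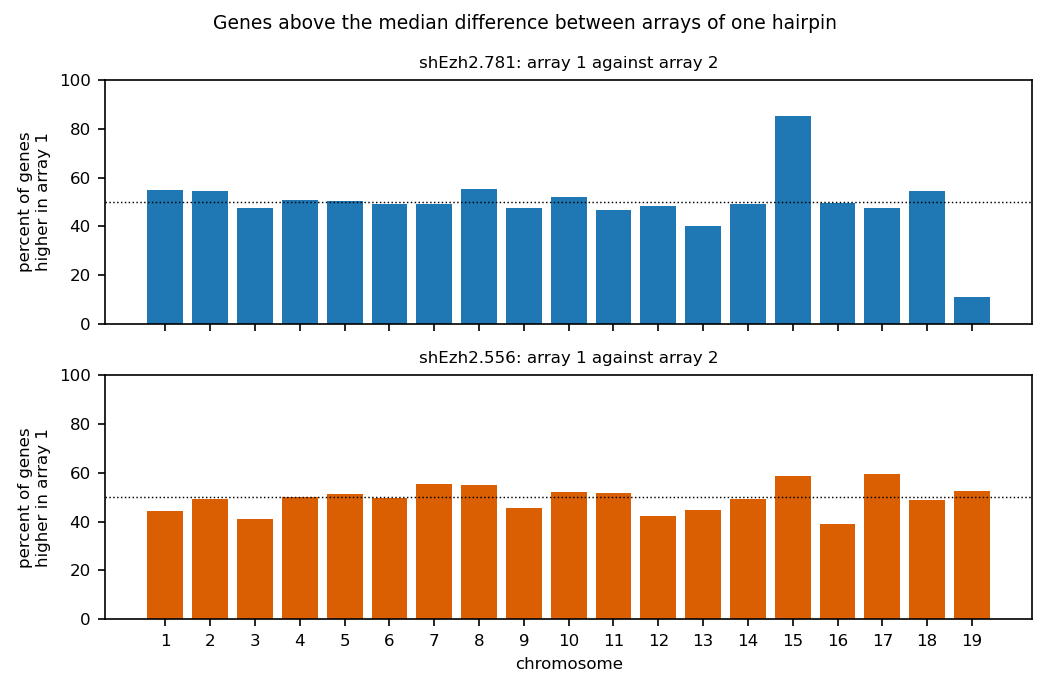
For each autosome on the horizontal axis, the bar gives the percentage of well expressed genes whose difference between array 1 and array 2 of a hairpin exceeded the median difference of all such genes; the dotted line marks 50. In the shEzh2.781 lymphomas chromosome 15 stood at 85.4% and chromosome 19 at 11.1%, while no chromosome of the shEzh2.556 lymphomas lay outside 38.8% to 59.4%.

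In all, 2022 genes were called, 10.5% of those tested. Of these, 1073 were higher with shEzh2.781 (5.59% of genes tested) and 949 higher with shEzh2.556 (4.95%). A difference of at least 1 was reached by 230 called genes, 146 higher with shEzh2.781 and 84 higher with shEzh2.556. The arrays of the 2 hairpins did not overlap for 65.1% of all genes tested and for each of the 2022 called genes, so separation of the hairpins alone was common. Without shEzh2.556 array 1 or array 2 the count was 213 or 286, of which 201 and 280 were among the 2022, and without shEzh2.781 array 1 or array 2 it was 1395 or 1294. These counts also rest on where the spread is taken from: without a shEzh2.556 array it came from the shEzh2.781 pair alone (prior degrees of freedom 4.26, against 19.6 from the shEzh2.556 pair). At an unadjusted p under 0.05 the counts were 4531 and 6292 without a shEzh2.556 array, and 4809 and 3961 without a shEzh2.781 array. A call that ended in the omission of a shEzh2.556 array is to be read with this in view. The count of called genes that differed by at least 1 was 156, 165, 233 and 303 in the same order. An exact permutation test of 2 arrays against 2 cannot go below a two-sided p of 0.333, so no such test was used for single genes.

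The direction of small differences depended on scaling and signal. The median difference over all genes tested was -0.07, and it was 0.04 when each array was centred on its median, so the split of 1073 against 949 became 2189 against 435 under that centring, 749 against 480 after quantile normalization and 849 against 417 after cyclic loess. Among genes with a mean signal of at least 7 the median was 0.08 and 925 were higher with shEzh2.781 against 413, while among genes under 7 it was -0.18 with 148 against 536. Small differences in lists of low signal, such as Hox genes, are to be read against that background.

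**Figure D2:**
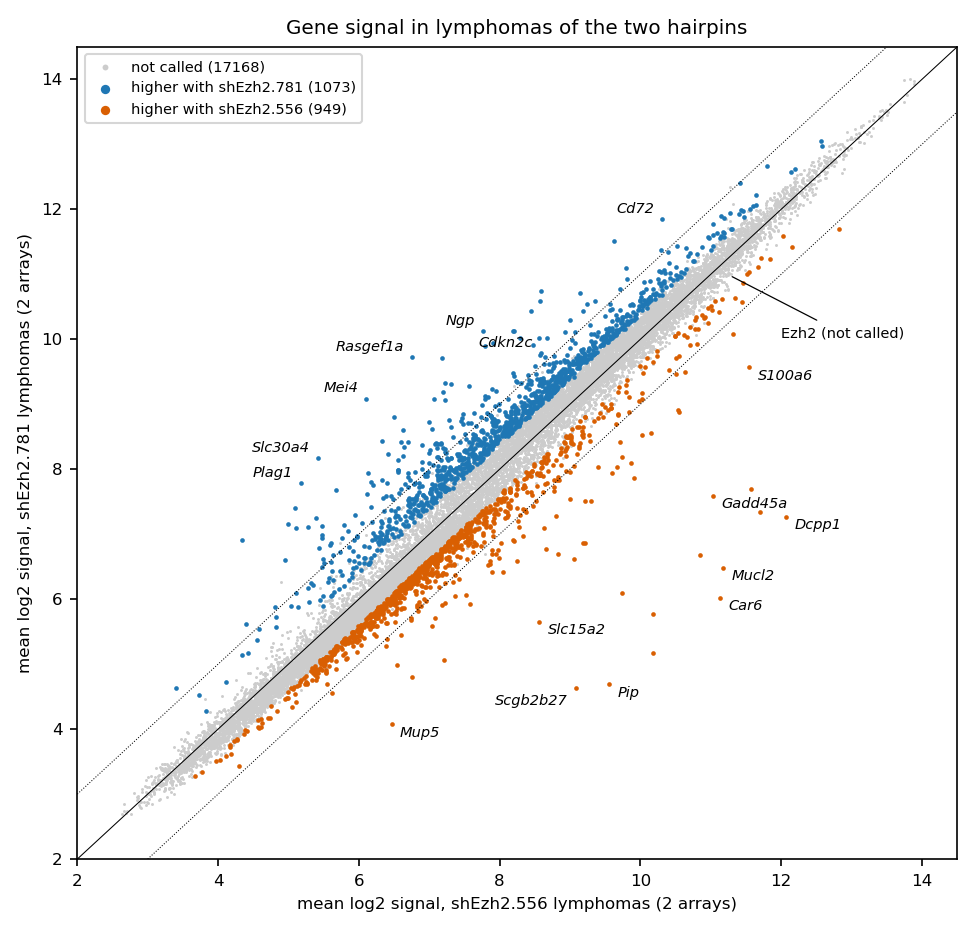
Mean log2 signal of the shEzh2.556 lymphomas (horizontal axis) against that of the shEzh2.781 lymphomas (vertical axis), 1 point per gene tested; the solid line marks equal levels and the dotted lines a difference of 1. The 1073 and 949 called genes flank the diagonal, the secreted proteins Car6, Pip, Dcpp1 and Mucl2 are among those farthest below it, and Ezh2 lies close to it without a call.

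The target of both hairpins was examined first. Ezh2 signal was 10.92 and 11.07 in shEzh2.781 lymphomas, 11.20 and 11.30 in shEzh2.556 lymphomas, and 12.64 and 12.70 in premalignant cells. Every lymphoma array was below both premalignant arrays, and the shEzh2.781 arrays were the lowest of all. The difference between hairpins of -0.26 (SE 0.11, 95% interval -0.51 to -0.01) did not pass the adjusted test (limma adjusted p = 0.142). It lay between -0.34 and -0.14 under the alternatives tried, with adjusted p from 0.0829 to 0.486. How much EZH2 protein or histone methylation the lymphomas held was not measured.

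None of the 11 measured PRC2 genes was called, at a median difference of 0.13 against -0.07 over all genes, while 1 was called higher with shEzh2.781 with each array centred and 1 with an intensity trend and robust moderation. Suz12, the subunit that holds the complex together, stood at 11.74 and 11.78 with shEzh2.781 against 11.38 and 11.47 with shEzh2.556, a difference of 0.33 (SE 0.10, adjusted p = 0.0699). Eed, which binds the methylated histone, differed by 0.27 (SE 0.13, adjusted p = 0.173), and Ezh1, the paralogous methyltransferase, by -0.10 (SE 0.12, adjusted p = 0.562). The accessory factors Jarid2, Mtf2 and Phf19 differed by 0.16, 0.26 and 0.05.

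Of 18 PRC1 genes 5 were higher with shEzh2.781 (27.8%, against 5.59% of all genes) and none lower, with a median of 0.22. All 18 had a mean of at least 7. Among all genes of such signal the median was 0.08 and 925 of 9990 were higher with shEzh2.781. Bmi1, the PCGF protein of canonical PRC1 and a cofactor of Myc in lymphoma, was 10.14 and 10.08 with shEzh2.781 and 8.78 and 9.07 with shEzh2.556. The premalignant level of 8.76 and 8.58 was close to that of the shEzh2.556 lymphomas, so the shEzh2.781 arrays stood alone above the rest. Bmi1 differed by 1.18 (SE 0.12, adjusted p = 0.00123), a call that no omission of an array ended. Pcgf5, a PCGF protein of variant PRC1, differed by 0.79 (SE 0.10), Kdm2b, which brings variant PRC1 to CpG islands, by 0.50 (SE 0.12), Phc1 by 0.47 (SE 0.11) and the ubiquitin ligase Rnf2 by 0.46 (SE 0.12). Of the 5, 1 was called without shEzh2.556 array 1 and 2 without shEzh2.556 array 2, 2 without shEzh2.781 array 1, and 2 after quantile normalization or cyclic loess. Cbx2 differed by -0.25 (SE 0.12, adjusted p = 0.175).

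Developmental genes that polycomb silences in many tissues were examined next. None of 37 Hox genes was called, with a median of -0.20, and of 76 other developmental regulators 1 was higher and 5 lower with shEzh2.781, with a median of -0.22. The share called among the 76 was 7.89%, near the 7.43% of all genes with a mean under 7. Low signal went with these medians: 33 of the 37 and 57 of the 76 had a mean under 7, where the median of all genes was -0.18. Isl1, a LIM homeodomain factor, was 7.38 and 6.53 with shEzh2.781, 6.07 and 5.88 with shEzh2.556, and 6.33 and 6.34 in premalignant cells. Its difference of 0.98 (SE 0.23, adjusted p = 0.0348) rested on arrays that differed within shEzh2.781, of which array 1 was the higher, and the call ended without either shEzh2.556 array. The 5 higher with shEzh2.556, Emx1, Sox17, Gata6, Nkx2-1 and Nkx2-5, differed by 0.38 to 0.54 in size. None of the 5 was called without either shEzh2.556 array, and after quantile normalization 1 regulator was called lower. Among 11 DNA methylation enzymes none was called, and among 34 other histone methyltransferases and demethylases the demethylase Kdm1b alone passed, at 0.44 (SE 0.10, adjusted p = 0.0336), a call that ended when any of the 4 arrays was left out.

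Among the genes ranked, the largest differences in either direction were those of secreted proteins of saliva and related fluids, all higher with shEzh2.556. The ranking left out predicted genes, immunoglobulin segments and other classes listed with the processing. Of 23 such genes measured, 14 were higher with shEzh2.556 and 1 with shEzh2.781, against 4.95% and 5.59% of all genes, and their median was -0.59. Like all lists, this one was chosen with earlier results of these data known, so its share is a description and not independent support. Of the 15 ranked genes with the largest differences in this direction, 10 encode such proteins, 9 of them in the list and the secretoglobin Scgb1b27 outside it. Promoters are shown to compare the 3 Dcpp paralogs with each other and with Car6 of the same group. The comparison includes Mei4, the ranked gene with the largest difference the other way. Sequences are from RefSeq on GRCm38.p6, 5′ to 3′ on the strand of the gene, each 300 bases around the annotated start, with CG dinucleotides in capitals. Dcpp1 is at chr17:23880626-23880925 (plus strand), Dcpp2 at chr17:23898472-23898771 (plus), Dcpp3 at chr17:23917208-23917507 (plus), Car6 at chr4:150201086-150201385 (minus) and Mei4 at chr9:81863420-81863719 (plus).
Dcpp1: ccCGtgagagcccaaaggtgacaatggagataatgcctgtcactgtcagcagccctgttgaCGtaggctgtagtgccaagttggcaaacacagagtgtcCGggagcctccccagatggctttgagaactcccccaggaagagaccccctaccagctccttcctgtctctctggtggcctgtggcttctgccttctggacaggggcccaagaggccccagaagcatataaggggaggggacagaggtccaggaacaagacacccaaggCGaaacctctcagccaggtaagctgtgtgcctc
Dcpp2: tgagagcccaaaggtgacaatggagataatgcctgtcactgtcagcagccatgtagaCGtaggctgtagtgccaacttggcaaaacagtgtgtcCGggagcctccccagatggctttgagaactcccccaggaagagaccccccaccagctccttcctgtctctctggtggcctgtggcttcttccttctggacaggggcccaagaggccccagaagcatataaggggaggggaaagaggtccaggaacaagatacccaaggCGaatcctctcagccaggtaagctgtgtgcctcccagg
Dcpp3: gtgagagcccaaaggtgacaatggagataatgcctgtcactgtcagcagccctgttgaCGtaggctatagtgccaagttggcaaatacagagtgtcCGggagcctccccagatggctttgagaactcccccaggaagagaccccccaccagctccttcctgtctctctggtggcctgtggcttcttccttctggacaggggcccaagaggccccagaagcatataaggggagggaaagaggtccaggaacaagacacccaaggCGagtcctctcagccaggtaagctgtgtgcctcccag
Car6: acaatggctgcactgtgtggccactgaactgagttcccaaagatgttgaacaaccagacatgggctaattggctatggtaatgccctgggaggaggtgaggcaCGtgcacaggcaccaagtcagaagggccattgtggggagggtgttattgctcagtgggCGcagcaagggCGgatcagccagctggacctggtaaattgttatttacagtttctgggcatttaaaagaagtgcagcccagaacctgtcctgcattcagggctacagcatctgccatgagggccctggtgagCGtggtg
Mei4: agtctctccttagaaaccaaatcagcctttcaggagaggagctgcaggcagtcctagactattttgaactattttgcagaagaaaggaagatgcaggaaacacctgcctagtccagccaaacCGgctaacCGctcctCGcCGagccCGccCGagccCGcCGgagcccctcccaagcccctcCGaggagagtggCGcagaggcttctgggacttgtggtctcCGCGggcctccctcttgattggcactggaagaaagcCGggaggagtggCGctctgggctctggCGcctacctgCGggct

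The aligned Dcpp1 and Dcpp2 windows were identical at 93.8% of positions, Dcpp1 and Dcpp3 at 95.1%, and Dcpp2 and Dcpp3 at 96.4%. The 3 genes lie next to one another on chromosome 17. Their transcripts may share probes, so the separate Dcpp values are uncertain and are not independent of each other. The 10 secretory genes held 0 to 4 CG dinucleotides in the 300 bases: 4 in Car6, Dcpp1 and Scgb2b27, 3 in Dcpp2 and Dcpp3, 2 in Pip and Bpifa2, 1 in Mucl2 and none in Prol1 and Scgb1b27. The Mei4 window held 16 and that of Ezh2 31. A count of 4 or fewer was found in 22.8% of tested genes with a promoter in the table, in 43.5% of those with a mean signal under 7 and in 4.96% of those at 7 or more. Such windows were available for 78.0% of the genes tested, for 88.1% of the called genes at least 1 higher with shEzh2.556 and for 76.7% of those at least 1 higher with shEzh2.781, and with this incomplete coverage the called genes were not compared with all genes.

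Car6, the secreted carbonic anhydrase of saliva, was 11.31 and 10.95 with shEzh2.556, 6.18 and 5.87 with shEzh2.781, and 5.53 and 5.71 in premalignant cells. The shEzh2.781 arrays were thus close to the premalignant ones, and both shEzh2.556 arrays were far above all others. The difference was -5.11 (SE 0.15, adjusted p = 1.61e-06), a 34.5-fold change. Scgb2b27, a secretoglobin, was 9.10 and 9.08 with shEzh2.556, 4.57 and 4.69 with shEzh2.781, and 4.09 and 4.35 in premalignant cells, a difference of -4.46 (SE 0.11, adjusted p = 4.3e-07). Pip, the prolactin-induced protein of exocrine secretions, differed by -4.87 (SE 0.16), with shEzh2.781 levels of 4.70 and 4.68 beside premalignant levels of 4.42 and 4.40.

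Mucl2, Bpifa2 and Prol1 were also higher in both shEzh2.781 arrays than in both premalignant arrays, a difference that was not tested. Mucl2, a mucin-like protein, was 11.35 and 11.01 with shEzh2.556, 7.01 and 5.96 with shEzh2.781, and 3.89 and 4.17 in premalignant cells. The groups formed 3 separate steps, with the shEzh2.781 arrays above both premalignant arrays and below both shEzh2.556 arrays; Mucl2 differed between hairpins by -4.69 (SE 0.28, adjusted p = 7.18e-05). The same order of steps was seen for Bpifa2, the parotid secretory protein, at 11.82 and 11.32, then 7.34 and 8.05, then 4.94 and 5.80, a difference of -3.87 (SE 0.23). Prol1, a proline-rich protein of tear and salivary glands, stood at 10.24 and 10.11, 6.09 and 5.45, and 4.47 and 4.59, and differed by -4.41 (SE 0.19). Olfactory receptor genes, a reference for low levels, had a 95th percentile of 6.29 and 6.23 with shEzh2.781 and 6.28 and 6.41 in premalignant cells. In these arrays Prol1, Car6, Pip and Scgb2b27 lay under that level. Differences among such low values, and exact folds that rest on them, are uncertain. Of the demilune cell and parotid proteins, Dcpp1 and Dcpp2 were not separated in this way, while Dcpp3 was. Dcpp1 was 6.86 and 7.68 with shEzh2.781 beside 6.78 and 7.08 in premalignant cells, and Dcpp2 was 4.41 and 5.95 beside 4.11 and 4.74. Dcpp3 stood at 11.30 and 10.41 with shEzh2.556, 6.03 and 7.32 with shEzh2.781, and 4.94 and 5.75 in premalignant cells. Between hairpins the 3 genes differed by -4.80 (SE 0.26), -4.997 (SE 0.43) and -4.18 (SE 0.39). For all 3 the shEzh2.781 array 2 was above array 1, and for all 3 shEzh2.556 array 1 was above array 2.

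The remaining members of the list differed less. Muc19 and Amy1, a gel-forming mucin and the salivary amylase, differed by -0.95 (SE 0.13) and -0.73 (SE 0.11), and Klk1b1, Klk1b22 and Pigr by -0.56, -0.56 and -0.49, all called. Smr3a, Lpo, Aqp5, Smr2, Cst10, Egf, Bpifb1 and Dmbt1 were not called, with differences from -0.59 to 0.01. Bhlha15, the transcription factor Mist1 of serous gland cells and plasma cells, went the other way, at 8.38 and 8.24 with shEzh2.781 against 7.29 and 7.17 with shEzh2.556, a difference of 1.08 (SE 0.11, adjusted p = 0.00109). Premalignant cells held 8.46 and 8.50 of it, so the shEzh2.556 arrays stood alone below the rest. The count of 14 was 9 without shEzh2.556 array 1 and 8 among genes of a mean signal of at least 7.

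Markers of gland epithelium were read beside these values. Of 19 glandular epithelial genes 4 were higher with shEzh2.556 (21.1%, against 4.95% of all genes) and none lower, with a median of -0.27. Their summed signal (as log2) was 10.78 and 10.75 with shEzh2.781, 11.17 and 10.99 with shEzh2.556, and 10.64 and 10.81 in premalignant cells. Ehf and Elf5, epithelial ETS factors, differed by -0.81 (SE 0.11) and -0.56 (SE 0.10), Krt7 by -0.54 and Cldn7 by -0.47. Epcam was 5.75 and 5.63 with shEzh2.781 and 5.96 and 5.96 with shEzh2.556 (-0.27, adjusted p = 0.121), and the keratins Krt5, Krt14, Krt18 and Krt19 differed by -0.26 to 0.02 with no call. The 4 called were 0 without shEzh2.556 array 1 and 2 without array 2, 2 after quantile normalization and 1 after cyclic loess. Most of the list had low signal (15 of 19 under 7). Among all genes under 7 the median was -0.18, and 536 of 9200 were higher with shEzh2.556. No gene of the 15 pancreatic acinar markers, another secretory programme, was called, with a median of -0.21. The part of epithelial cells in the secretory difference was not tested.

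**Figure D3:**
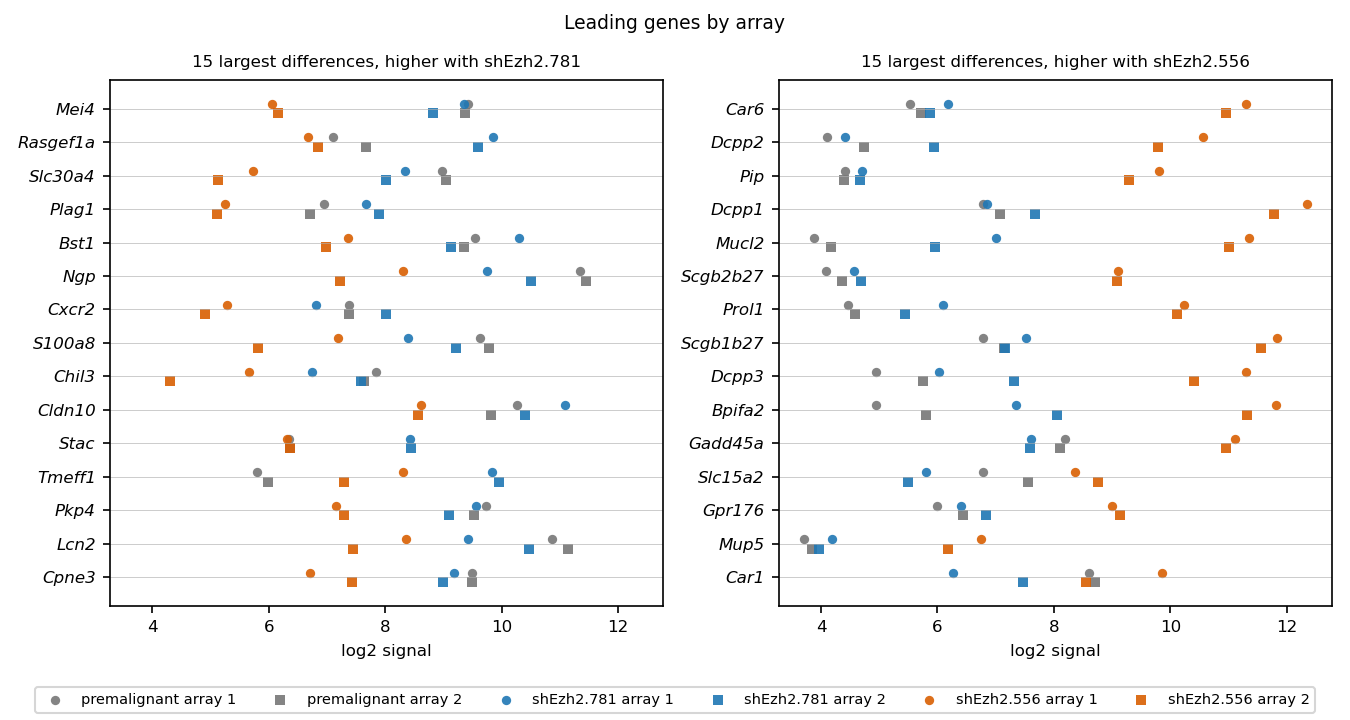
Log2 signal of the 15 leading genes in each direction, by array, ranked without predicted genes, immunoglobulin segments and other classes listed with the processing. Grey marks premalignant cells, blue shEzh2.781, orange shEzh2.556, circles array 1 and squares array 2. On the right the shEzh2.556 arrays lie apart for 14 of the genes, with Car1 as the exception, and on the left the premalignant arrays often lie near the shEzh2.781 arrays, as for Mei4 at 9.42 and 9.36 against 9.36 and 8.82.

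Outside the secretory group, Gadd45a, a stress and p53-response gene that slows the cell cycle, was 11.11 and 10.95 with shEzh2.556 against 7.60 and 7.59 with shEzh2.781 and 8.19 and 8.11 in premalignant cells. Both shEzh2.556 arrays lay far above the other 4, and the difference of -3.43 (SE 0.11, adjusted p = 1.72e-06) was a 10.8-fold change. Slc15a2, a transporter of small peptides, was 8.37 and 8.76 with shEzh2.556, 5.80 and 5.50 with shEzh2.781 and 6.79 and 7.56 in premalignant cells, so that the hairpin groups lay on opposite sides of the premalignant level (-2.91, SE 0.15). Gpr176, an orphan receptor, differed by -2.44 (SE 0.15) and Mup5, a major urinary protein with close paralogs whose probes it may share, by -2.39 (SE 0.18). These 4 calls held without any single array.

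Among the genes ranked, the largest difference towards shEzh2.781 was that of Mei4, a protein needed for meiotic DNA breaks. Its level was 9.36 and 8.82 with shEzh2.781 against 6.05 and 6.16 with shEzh2.556. Premalignant cells held 9.42 and 9.36, so the shEzh2.556 lymphomas stood alone at the low level (2.98, SE 0.17, adjusted p = 5.47e-05). Slc30a4, a zinc transporter, followed the same order, at 8.34 and 8.02 with shEzh2.781, 5.72 and 5.12 with shEzh2.556 and 8.97 and 9.05 in premalignant cells (2.75, SE 0.19). Pkp4, a plakophilin of cell junctions, and Cpne3, a calcium-dependent membrane-binding protein, also had premalignant levels beside those of shEzh2.781 and differed by 2.10 (SE 0.15) and 2.02 (SE 0.20). Cldn10, a tight-junction protein, was 11.08 and 10.39 with shEzh2.781, 8.62 and 8.56 with shEzh2.556 and 10.27 and 9.83 in premalignant cells, again with the shEzh2.556 arrays alone at the low level (2.15, SE 0.19).

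For Rasgef1a, Stac and Plag1 both shEzh2.781 arrays were above all other arrays. Rasgef1a, an exchange factor for Ras-family GTPases, was 9.84 and 9.60 with shEzh2.781, 6.68 and 6.84 with shEzh2.556 and 7.11 and 7.68 in premalignant cells (2.96, SE 0.12, adjusted p = 9.44e-06). Stac, an adaptor of muscle and nerve calcium channels, was 8.43 and 8.45 against 6.31 and 6.36, with 6.36 and 6.37 in premalignant cells, so that shEzh2.556 and premalignant arrays overlapped (2.11, SE 0.10, adjusted p = 2.07e-05). Plag1, a zinc-finger factor of fetal tissue named after the pleomorphic adenoma of salivary gland, was 7.68 and 7.89 with shEzh2.781, 6.94 and 6.72 in premalignant cells and 5.24 and 5.11 with shEzh2.556. Its groups did not overlap, and the difference was 2.61 (SE 0.12, adjusted p = 1.44e-05). Tmeff1, a membrane protein, was high in both kinds of lymphoma, at 9.83 and 9.96 against 8.30 and 7.29, with 5.79 and 5.99 in premalignant cells (2.10, SE 0.27).

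Over the 230 genes that differed by at least 1, the premalignant mean was nearer to the shEzh2.781 mean for 162 and nearer to the shEzh2.556 mean for 68. By direction, it was nearer to shEzh2.781 for 105 of the 146 genes higher with that hairpin and for 57 of the 84 higher with shEzh2.556. Both premalignant arrays lay above all shEzh2.781 arrays for 54 of the 146, as for Slc30a4, and below all shEzh2.781 arrays for 28 of the 84, as for Mucl2. They lay below all shEzh2.556 arrays for 11 of the 146 and above all shEzh2.556 arrays for 9 of the 84. Across all genes tested, premalignant arrays correlated at 0.984 to 0.988 with shEzh2.781 arrays and at 0.977 to 0.979 with shEzh2.556 arrays. The share of premalignant values on one side is a description, since the cells were prepared in another way.

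Of all lists, neutrophil markers had the most genes higher with shEzh2.781. Of 21 neutrophil markers 15 were higher and none lower, against 5.59% and 4.95% of all genes, with a median of 1.40. Ngp, a granule protein, was 9.75 and 10.50 with shEzh2.781, 8.30 and 7.23 with shEzh2.556 and 11.35 and 11.45 in premalignant cells. The premalignant arrays were highest, the shEzh2.556 arrays lowest, and array 2 of shEzh2.556 was below array 1 (difference 2.36, SE 0.33, adjusted p = 0.00491). S100a8, a subunit of calprotectin, went in the same order at 8.40 and 9.22, 7.19 and 5.82, and 9.63 and 9.78 (2.304, SE 0.40). Cxcr2, the chemokine receptor of neutrophils, differed by 2.32 (SE 0.32), Chil3 by 2.17 (SE 0.40), Lcn2 by 2.04 (SE 0.35), Mmp8 by 2.00 (SE 0.25) and Ltf by 1.83 (SE 0.24).

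The summed signal of the neutrophil list (as log2) was 12.24 and 12.91 with shEzh2.781, 11.30 and 10.77 with shEzh2.556 and 13.54 and 13.74 in premalignant cells, without overlap between groups. Mpo and Elane, the granule enzymes of neutrophil precursors, differed by 1.58 (SE 0.12) and 0.93 (SE 0.11), and these 2 calls held without any single array. The count of 15 was 7 without shEzh2.556 array 1, 2 without shEzh2.556 array 2 and 6 with an intensity trend and robust moderation. Ly6g, the marker of mature neutrophils, was 6.44 and 7.30 with shEzh2.781 and 5.63 and 5.58 with shEzh2.556, and Itgam, which other myeloid cells share, was not called (0.06, adjusted p = 0.83). In bulk RNA, fewer cells of a type and less RNA per cell cannot be told apart.

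Erythroid genes moved the opposite way. Of 16 erythroid markers 13 were higher with shEzh2.556 (81.25%, against 4.95% of all genes) and none lower, with a median of -0.99. Ermap, a red cell membrane protein, was 8.30 and 8.12 with shEzh2.556, 6.82 and 6.96 with shEzh2.781 and 7.87 and 8.39 in premalignant cells, so that the shEzh2.556 and premalignant arrays overlapped and the shEzh2.781 arrays lay below (-1.32, SE 0.11, adjusted p = 0.000546). Hemgn, a nuclear protein of erythroid precursors, was 7.75 and 7.28 against 5.93 and 6.18 with shEzh2.781 (-1.46, SE 0.16). Rhag and Rhd, of the Rh complex, differed by -1.54 (SE 0.22) and -1.31 (SE 0.16). Car1, the red cell carbonic anhydrase, was 9.86 and 8.56 against 6.27 and 7.47 (-2.34, SE 0.44), and its call ended without shEzh2.556 array 1 (adjusted p = 0.137) or array 2 (0.0563).

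The list median per array was 6.44 and 6.93 with shEzh2.781, 7.98 and 7.62 with shEzh2.556 and 7.92 and 8.22 in premalignant cells. Tfrc, the transferrin receptor, and Tmem14c, which dividing cells of other kinds share, were not called, nor was the factor Klf1 (-0.54, adjusted p = 0.0601). Erythroid calls numbered 2 without shEzh2.556 array 1 and 4 without array 2. In the shEzh2.781 lymphomas the neutrophil list was thus higher and the erythroid list lower than in the shEzh2.556 lymphomas, and their part in the other differences was not tested.

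**Figure D4:**
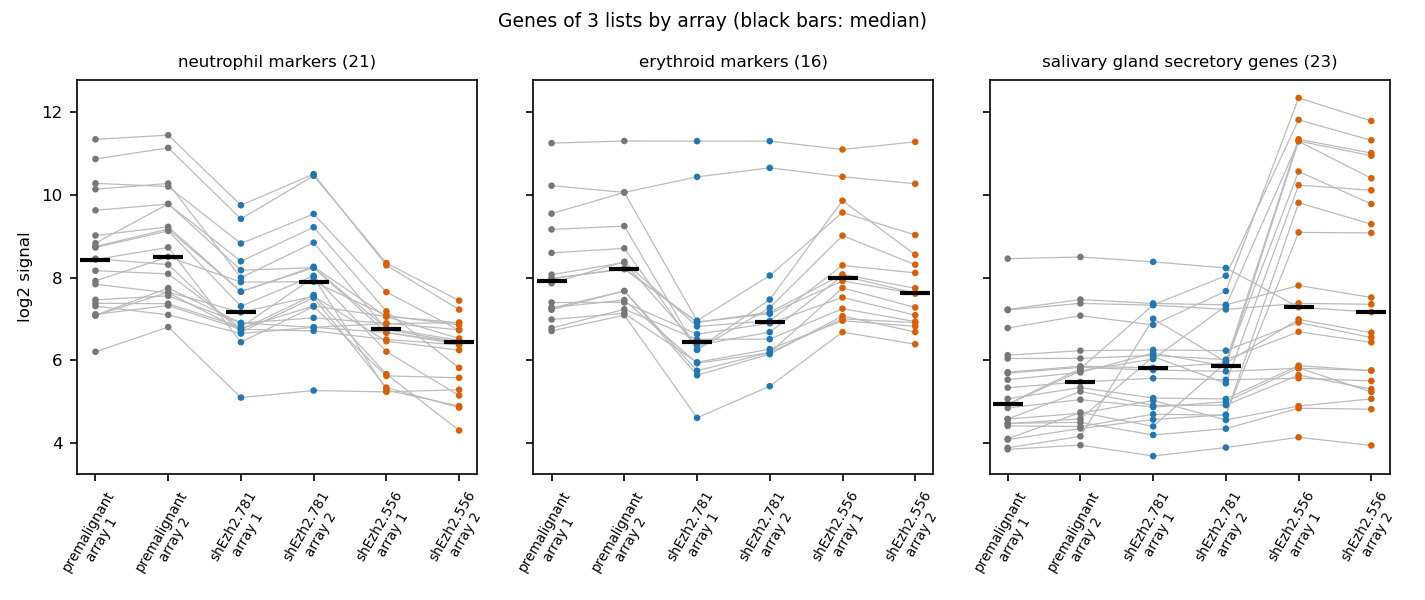
Log2 signal (vertical axis) of each measured gene of 3 lists in the 6 arrays (horizontal axis), with lines joining the values of a gene and black bars for the list median. The erythroid median is lowest in the shEzh2.781 arrays (6.44 and 6.93), the neutrophil median is lowest in the shEzh2.556 arrays, and 9 salivary genes rise far above the rest only in the shEzh2.556 arrays.

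Other cell types showed smaller differences. Of 27 macrophage and monocyte markers 6 were higher with shEzh2.556 (22.2%, against 4.95% of all genes) and none lower, with a median of -0.27. A mean under 7 was found for 13 of the 27. Among all 9200 genes of such signal the median was -0.18, with 536 higher with shEzh2.556 and 148 with shEzh2.781. Hmox1, the heme-degrading enzyme, differed by -0.89 (SE 0.11), Cd68 by -0.65 and the iron exporter Slc40a1 by -0.63. Lyz2, the macrophage lysozyme, was 10.11 in shEzh2.556 array 1 and 7.96 in array 2, against 9.76 and 10.33 with shEzh2.781, and was not called (1.01, adjusted p = 0.22). Macrophage calls with shEzh2.556 higher numbered 0 and 1 without shEzh2.556 array 1 and array 2. Of 24 stromal and endothelial markers 8 were higher with shEzh2.556 (33.3%, against 4.95% of all genes) and none lower, with a median of -0.34. Here too, 12 of the 24 had a mean under 7. Eng, a TGF-beta co-receptor of endothelium, was 8.73 and 8.54 against 7.19 and 6.997 (-1.54, SE 0.12), and smooth muscle actin Acta2 was 8.14 and 8.54 against 7.15 and 6.80 (-1.37, SE 0.16), while the collagens Col1a1, Col1a2 and Col3a1 were not called. The 8 became 2, 1 and 4 without shEzh2.556 array 1, shEzh2.556 array 2 and shEzh2.781 array 2, 5 after quantile normalization or centring and 3 after cyclic loess.

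Of 20 T cell markers, Thy1 (-0.69) and Cd5 (-0.40) were higher with shEzh2.556, and neither was called without either shEzh2.556 array, while Cd3d, Cd3e, Cd4 and Cd8a were not called. None of 16 NK cell markers was called. Of 12 megakaryocyte and platelet markers, Ppbp (-0.63) and Gp9 (-0.39) were higher with shEzh2.556, of 16 eosinophil, basophil and mast cell markers Cma1 (-0.48), and of 19 dendritic cell markers Tcf4 (-0.43). The 4 calls ended without either shEzh2.556 array. In the dendritic list Ly6d, which B-lymphoid progenitors carry too, was 9.39 and 9.58 with shEzh2.781, 8.30 and 8.09 with shEzh2.556 and 10.03 and 10.56 in premalignant cells (1.29, SE 0.12), and Cd209a differed by 0.60 (SE 0.14), a call that ended without either shEzh2.556 array.

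Of 22 genes of B-lineage identity 22.7% were called, against 10.5% of all genes, with the main markers of the lineage not among them. Cd79a, the signalling chain of the B cell receptor, was 12.37 and 12.56 with shEzh2.781 and 12.34 and 12.52 with shEzh2.556 (0.04, 95% interval -0.23 to 0.31). Pax5, Ebf1, Cd79b, Ms4a1 and Cd22 differed by -0.20 to 0.21, and Ptprc, which encodes B220, by -0.22 (SE 0.14), all without a call. In this list 4 genes were higher with shEzh2.781 and 1 with shEzh2.556, with a median of 0.13. Cd72, an inhibitory co-receptor, was 11.84 and 11.87 with shEzh2.781, 10.43 and 10.20 with shEzh2.556 and 12.22 and 12.44 in premalignant cells. The 3 groups did not overlap, and the difference of 1.54 (SE 0.12, adjusted p = 0.000307) held without any single array. The kinase Blk differed by 0.94 (SE 0.13), Fcrla by 0.56, the ETS factor Spib by 0.40 and the adaptor Bank1 by -0.59, and each of these calls ended without either shEzh2.556 array.

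Genes of early B cells split in both directions, with 7 of 28 higher with shEzh2.781, 4 higher with shEzh2.556 and a median of -0.01. In all, 39.3% were called, against 10.5% of all genes. Il7r, the interleukin 7 receptor of pro-B and pre-B cells, was 11.72 and 11.30 with shEzh2.781, 9.66 and 9.58 with shEzh2.556 and 10.95 and 11.68 in premalignant cells. The shEzh2.556 arrays stood alone at the lower level (1.89, SE 0.14, adjusted p = 0.000309), also without any single array, although the gene lies on chromosome 15, on which the shEzh2.781 arrays differed. Rag1 and Rag2, the V(D)J recombinase, were lower with shEzh2.556 as well, by 0.96 (SE 0.14) and 0.88 (SE 0.12), as was the factor Sox4 by 1.49 (SE 0.22). Bst1, a surface enzyme of early B cells that neutrophils also carry, was 10.30 and 9.13 against 7.36 and 6.99 (2.54, SE 0.31).

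On the other side, Igfbp7, a secreted binding protein of insulin-like growth factors, was 10.09 and 10.22 with shEzh2.556 against 8.72 and 8.39 with shEzh2.781, with 7.96 and 8.50 in premalignant cells (-1.60, SE 0.13). Cd34, Vpreb2 and Tcf7l2 differed by -0.57, -0.54 and -0.44, and Vpreb3 and Cplx2 by 0.43 and 0.42. Without shEzh2.556 array 1 and array 2 the counts of 7 and 4 fell to 2 and 1 in the one case and 1 and 1 in the other, and without shEzh2.781 array 2 the 4 became 1. Immunoglobulin constant genes Ighm, Igha and Ighg3 were not called, and arrays of one hairpin differed in them, as for Ighm at 7.71 and 8.94 with shEzh2.781 and 8.39 and 7.67 with shEzh2.556.

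Of genes of later B-cell stages, 16.7% of 24 mature B cell genes, 26.7% of 15 germinal centre genes and 26.7% of 15 plasma cell genes were called, against 10.5% of all genes, in both directions in each list. Zbtb32, a repressor induced in activated and memory B cells, was 10.33 and 10.75 with shEzh2.556, 8.85 and 8.99 with shEzh2.781 and 7.39 and 7.36 in premalignant cells. The groups formed 3 steps (-1.62, SE 0.15, adjusted p = 0.000651), and the call held without any single array. Among 24 mature B cell genes Fcrl1 (-0.50) and Cd5 (-0.40) were also higher with shEzh2.556 and Cd1d1 (0.78) with shEzh2.781. Of 15 germinal centre genes Mybl1, a Myb-family factor, differed by 0.83 (SE 0.10) and Neil1, a DNA repair glycosylase, by 0.72, against Lmo2 at -1.04 (SE 0.15) and Basp1 at -0.41. Bcl6, the master repressor of the germinal centre, was not called (-0.49, adjusted p = 0.0697). Of 15 plasma cell genes, Slamf7, Irf4 and Sdc1 differed by 0.92 (SE 0.11), 0.74 (SE 0.11) and 0.71 (SE 0.15), and the elongation factor Ell2 by -0.99 (SE 0.14). Zbtb32 and Mybl1 kept their calls under every omission, whereas without shEzh2.556 array 1 or array 2 the calls of Fcrl1, Cd5, Neil1, Lmo2, Basp1, Slamf7 and Sdc1 ended. Irf4 lost its call without array 1, and Cd1d1 and Ell2 without array 2.

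Of 9 MHC class II genes 7 had a positive difference, with a median of 0.50, but none of these was called, and 1 of the 9 was called in all (11.1%, against 10.5% of all genes). H2-Ab1 was 11.53 and 12.13 with shEzh2.781 against 11.38 and 11.17 with shEzh2.556, and their regulator Ciita was 8.02 and 8.51 against 7.86 and 7.68. For both genes array 2 of shEzh2.781 was the higher of its pair, and without array 1 of shEzh2.781 6 of the 9 were called higher; with centring 5 were. H2-Eb2 alone was called in the other direction (-0.63, SE 0.15), a call that ended without either shEzh2.556 array or without shEzh2.781 array 1. Of 15 MHC class I presentation genes H2-Q4, Psmb10 and Psmb9 were higher with shEzh2.781, by 0.79, 0.67 and 0.43, and none was called without either shEzh2.556 array. Of 36 homing and adhesion genes 1 was higher with shEzh2.781 (Cnr2, 0.68) and 4 with shEzh2.556, among them Cd69 (-1.28, SE 0.21), and none was called without either shEzh2.556 array.

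Of 48 DNA replication genes 46 had a positive difference, 7 were called higher and none lower, and the median was 0.21 against -0.07 over all genes and 0.08 over genes of a mean signal of at least 7. Rfc3, a clamp-loader subunit, was 10.71 and 10.36 against 9.49 and 9.66 (0.96, SE 0.14), Rpa3 of the single-strand binding complex differed by 0.74 (SE 0.11) and Ccne2, cyclin E2, by 0.59 (SE 0.10). The 7 were 1 and 0 without shEzh2.556 array 1 and array 2, 3 and 4 without shEzh2.781 array 1 and array 2, 3 after quantile normalization or cyclic loess and 18 with centring. Of 31 homologous recombination and Fanconi genes 3 were higher (Bard1, Chek1 and Rad51c, at 0.64, 0.61 and 0.45), of 13 E2F and RB genes 2 (E2f6 and E2f2, at 0.60 and 0.39) and of 45 mitosis genes 2 (Spc25 and Kif18a, at 0.42 and 0.40). The shares were 14.6% of replication, 9.68% of recombination and 15.4% of E2F and RB genes, against 5.59% of all genes. All members had a mean of at least 7, where 925 of 9990 genes were higher with shEzh2.781. The recombination share was near that background. The share of mitosis genes called, 4.44%, was below the 10.5% of all genes, and their median of 0.12 was near the 0.08 of genes with a mean of at least 7. None of these 7 was called without shEzh2.556 array 1, and only Bard1 and E2f6 were without array 2.

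Of 11 genes for CDK inhibitors and D-type cyclins, 3 were higher with shEzh2.781 and 1 with shEzh2.556, with a median of 0.19. In all, 36.4% were called, against 10.5% of all genes. Cdkn2c, which encodes p18Ink4c, was 9.82 and 9.75 with shEzh2.781, 8.55 and 8.62 with shEzh2.556 and 10.24 and 10.33 in premalignant cells. The 3 groups did not overlap and the difference of 1.20 (SE 0.10, adjusted p = 0.000544) held without any single array. Cdkn1b, which encodes p27Kip1, differed by 0.68 (SE 0.10) and Cdkn2d by 0.51 (SE 0.11), while Cdkn2b differed by -0.37 (SE 0.10, adjusted p = 0.0499), and these 3 calls ended without either shEzh2.556 array. Cdkn2a, the p16 and p19Arf locus often lost in Em-Myc lymphoma, was 7.503 and 7.265 with shEzh2.781 against 8.10 and 7.56 with shEzh2.556 (-0.45, SE 0.17, adjusted p = 0.116). Cyclins Ccnd1, Ccnd2 and Ccnd3 were not called.

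Called p53 target genes went in both directions. Of 25 target genes 4 were higher with shEzh2.781 and 2 with shEzh2.556, with a median of -0.02. The share called was 24.0%, against 10.5% of all genes. Besides Gadd45a, Zmat3 was higher with shEzh2.556 (-0.60, SE 0.12), while Ei24, Rrm2b, Aen and Ddb2 were higher with shEzh2.781, by 0.68, 0.67, 0.66 and 0.48. Without either shEzh2.556 array only Gadd45a of these kept its call. Mdm2, the p53 ubiquitin ligase, was 9.04 and 8.96 against 8.92 and 9.12, a difference of -0.02 (95% interval -0.27 to 0.24). Of 18 BCL2 family genes 1 was higher with each hairpin, a share of 11.1% that was near the 10.5% of all genes. Bcl2 differed by -0.02 (95% interval -0.35 to 0.32) and Bnip3, a mitophagy receptor induced by hypoxia, was 8.34 and 8.43 with shEzh2.781 against 7.13 and 7.20 with shEzh2.556 (1.22, SE 0.10, adjusted p = 0.000521), a call held without any single array. Bok differed by -0.57 (SE 0.13), a call that ended without either shEzh2.556 array.

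Most lists of growth genes that Myc drives gave few calls, but 22.2% of 18 glycolysis genes were called, against 10.5% of all genes. For nucleotide synthesis and unfolded protein response genes the shares were 3.1% and 3.4%. Myc itself was 13.18 and 13.20 with shEzh2.781 and 13.22 and 13.27 with shEzh2.556 (-0.06, 95% interval -0.29 to 0.17), near the upper end of the array's range. No gene was called among 51 ribosome biogenesis genes, 44 ribosomal protein genes, 58 oxidative phosphorylation genes and 14 genes of the Myc network, with medians of 0.03, 0.11, 0.09 and -0.03. With centring 2, 4, 5 and 1 were called, all higher with shEzh2.781, while quantile normalization called 2 ribosome biogenesis genes higher with shEzh2.556. Of 32 nucleotide synthesis genes Dck (0.49) was called and of 29 unfolded protein response genes Herpud1 (0.52), neither without a shEzh2.556 array. Actb differed by -0.09 (SE 0.10, adjusted p = 0.56). Of 18 glycolysis genes Slc16a1 (0.51) and Hk1 (0.49) were higher with shEzh2.781 and Aldoa (-0.73) and Pfkl (-0.44) with shEzh2.556, and none of the 4 was called without either shEzh2.556 array.

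The share called was 21.4% for 28 TGF-beta and BMP genes, 25.8% for 31 immediate-early genes and 14.3% for 28 NF-kB genes, against 10.5% of all genes. Of the TGF-beta and BMP genes 4 were higher with shEzh2.781 and 2 with shEzh2.556. Tgfb2, a ligand, was 8.21 and 8.32 with shEzh2.781, 6.88 and 7.56 with shEzh2.556 and 6.46 and 6.66 in premalignant cells (1.05, SE 0.19), and its receptor Tgfbr1 differed by 0.61, Id3 by 0.53 and Smad2 by 0.53, against Eng at -1.54 and the co-receptor Tgfbr3 at -0.59. Of the immediate-early genes Dusp6, Rgs2 and Dusp5 were higher with shEzh2.781, by 0.97, 0.62 and 0.38, and Jun, Atf3, Fosb, Klf6 and Cd69 with shEzh2.556, by 0.49 to 1.28 in size. Of the NF-kB genes, with counts near the 5.59% and 4.95% of all genes in either direction, the inhibitors Nfkbia (0.68) and Nfkbie (0.44) were higher with shEzh2.781 and Nfkbid (-0.70) and Traf1 (-0.47) with shEzh2.556. Without shEzh2.556 array 1, 1 of these 8 immediate-early genes and none of these 4 NF-kB genes was called, and without array 2 none of either. Of the TGF-beta genes, Eng was called without array 1, and Eng and Tgfb2 without array 2.

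Of 18 cholesterol synthesis genes Insig1 (0.57), Msmo1 (0.56) and Idi1 (0.44) were higher with shEzh2.781, and of 15 fetal genes Plag1, the RNA-binding proteins Lin28b (0.67) and Igf2bp3 (0.53). Of 37 interferon response genes Cmpk2 was higher with shEzh2.781 (0.94, SE 0.12) and Isg20 (-0.66) and Oas2 (-0.41) with shEzh2.556. Of 20 Notch genes Hey1 (-0.48) and of 26 B cell receptor signalling genes Rasgrp3 (-0.49) were higher with shEzh2.556. Plag1 kept its call without either shEzh2.556 array and Cmpk2 without array 2, while the other 9 genes of this paragraph lost theirs without either.

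**Figure D5:**
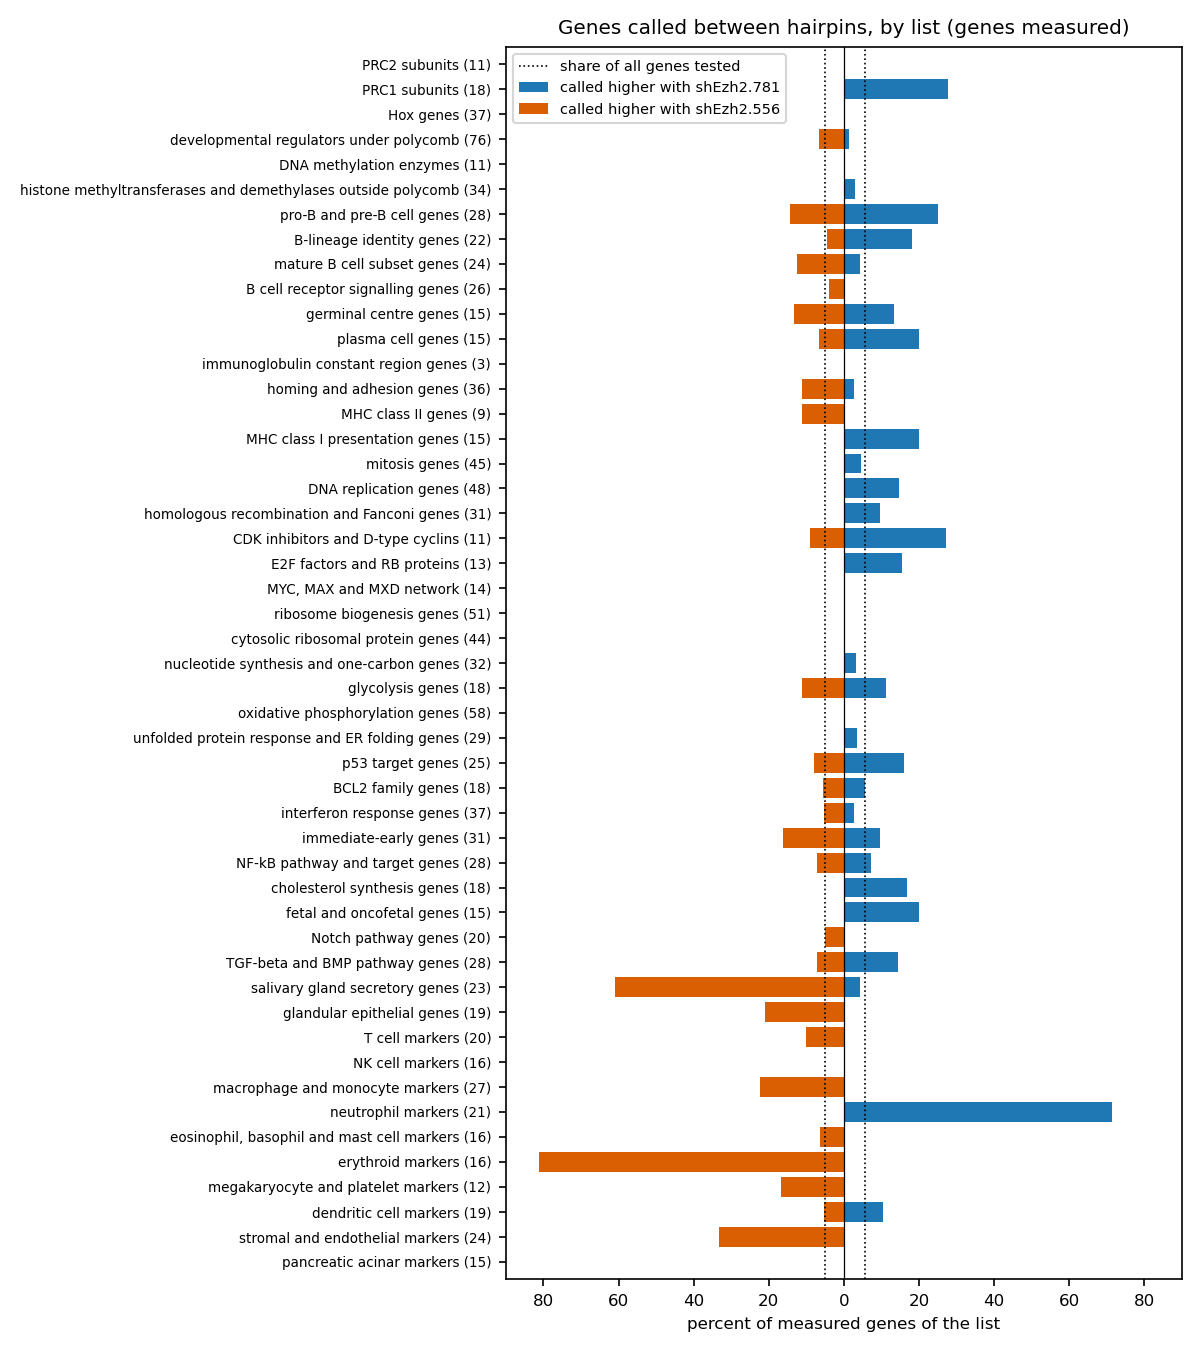
Percentage of the measured genes of each list (number in brackets) called higher with shEzh2.781 (blue, to the right) or with shEzh2.556 (orange, to the left); dotted lines mark 5.59% and 4.95%, the shares of all genes tested. Neutrophil markers (15 of 21), erythroid markers (13 of 16) and salivary gland secretory genes (14 of 23) have the longest bars. The lists were chosen with earlier results of these data known.

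Of the 30 leading genes picked by the naming rule, not all kept their call under each of the 4 omissions. The 7 that did not were Bst1, Cxcr2, Lcn2 and Car1, lost without either shEzh2.556 array, and Ngp, S100a8 and Chil3, lost without shEzh2.556 array 2 (adjusted p = 0.0584, 0.0689 and 0.0739). Among the 163 called genes picked by the naming rule, 38 kept their call under the 4 omissions, and none of the 163 changed sign under any alternative.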

How the data were processed

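RNA of 6 samples was hybridised to Affymetrix Mouse Gene 1.0 ST arrays, per the labels. The authors deposited a table of values per probe set that run from 2.30 to 14.22 and were taken as log2 signals from their range; the normalization and its software are not given in the sources used here. Of 35512 probe sets, 21789 had 1 gene symbol, 1621 several and 12102 none. The probe set with the highest mean over the 6 arrays stood for a gene with several, genes on X and Y were left out, and 19190 genes were tested, with no filter on signal.

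The 4 lymphoma arrays were fitted with limma 3.58.1 (R 4.3.3, lmFit and eBayes, 2 residual degrees of freedom) and p-values were adjusted by Benjamini-Hochberg. The fit was tested on simulated data. Tables were handled with Python 3.11.15 and pandas 2.3.3. The number of arrays limits the precision, with a median SE of 0.11.

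Named genes are the 15 largest called differences in each direction without overlap of arrays, up to 5 called members of each list in each direction with the smallest p, other members where a list is described, and a few fixed genes. Members and the 50 lists were chosen with earlier results of these data known. No gene of the list of replication-dependent histones was matched by symbol. Summed list signals are log2 of the sum of linear signals. Alternatives covered scaling, a signal filter, variance moderation, the replicate block, the premalignant arrays, probe set choice, X and Y genes and omission of each array. Cyclic loess and the omission of chromosomes 15 and 19 were chosen after seeing the data. Promoters came from RefSeq (GRCm38.p6).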

Additional observations from a re-analysis of the deposited data

How the results depend on the processing

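The 2022 calls became 1229 after quantile normalization, 1266 after cyclic loess, 2624 with each array centred on its median, 1439 among genes with a mean of at least 7 and 2461 with an intensity trend and robust moderation, and 213 to 1395 when an array was left out. Where a shEzh2.556 array is left out, the spread comes from the shEzh2.781 pair alone and the lone array is assumed to vary like that pair. With the replicate number as a block (replicate block) 3031 genes were called. The numbers are not stated to pair the samples, there are only 2 pairs, and the correlation of their deviations was 0.0624. In the lists, 14 of 23 salivary genes became 8 of the 11 that passed the signal filter and 9 to 13 over the omissions; 15 of 21 neutrophil markers 9 of 10 with the filter, 6 with trend and robust moderation and 2 to 15 over the omissions; 13 of 16 erythroid markers 7 of 10 with the filter and 2 to 14 over the omissions. The filter tests fewer genes. The 8 of 24 stromal markers became 5 after quantile normalization, 5 with centring, 4 of 12 with the filter, 3 after cyclic loess and 1 to 8 over the omissions. The 7 pro-B and pre-B genes became 1 to 6 over the omissions. The 7 replication genes became 3 after quantile normalization, 18 with centring, 11 with trend and robust moderation, 3 after cyclic loess and 0 to 4 over the omissions. The 5 PRC1 genes became 2 after quantile normalization, 2 after cyclic loess and 1 to 4 over the omissions. Of the 163 called genes of the naming rule, 0 changed sign, 91 kept their call under each setting other than omissions, and 38 under the 4 omissions. For called genes an omission could not change the sign, since their arrays did not overlap between hairpins. Changes of sign were met in 6 genes without a call. With centring Ezh1 was at 0.0122, Mdm2 at 0.0964, Myc at 0.0549, Bcl2 at 0.0980 and Actb at 0.0264. Cd79a was at -0.0370 after quantile normalization and -0.0223 after cyclic loess. Over the omissions of an array Ezh1 ran from -0.220 to 0.0173 (highest without shEzh2.556 array 2), Mdm2 from -0.116 to 0.0812 (above 0 without shEzh2.781 array 2 or shEzh2.556 array 2), Bcl2 from -0.200 to 0.169 (above 0 without shEzh2.781 array 1 or shEzh2.556 array 2) and Cd79a from -0.0584 to 0.131 (below 0 without shEzh2.781 array 2 or shEzh2.556 array 1). The cause of these changes was not tested.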

Other observations

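The genes that ranked next behind the leading 15 in each direction were looked at after their values had been seen. Among those higher with shEzh2.781, Igf1r, the receptor of insulin-like growth factor 1, was 10.20 and 10.06 with shEzh2.781, 7.89 and 8.51 with shEzh2.556 and 8.76 and 8.68 in premalignant cells (1.93, SE 0.18, limma adjusted p = 0.000816). Kcnk1, a potassium channel, was 10.47 and 10.41 against 8.09 and 8.80, with 7.06 and 7.62 in premalignant cells, so that both kinds of lymphoma lay above the premalignant arrays. Eml1, a microtubule-binding protein, followed the same order at 10.23 and 10.03, 8.26 and 8.11, and 7.14 and 6.77.

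Among those higher with shEzh2.556, the calcium-binding proteins S100a6 and S100a4 and their partner Anxa2 stood together. S100a6 was 11.72 and 11.38 with shEzh2.556, 9.39 and 9.74 with shEzh2.781 and 7.90 and 7.55 in premalignant cells (-1.98, SE 0.16, limma adjusted p = 0.000348). S100a4 was 9.66 and 9.54, 7.72 and 8.16, and 6.69 and 7.05 in the same order (-1.65, SE 0.15). Both formed 3 steps without overlap and kept their calls without any single array. Anxa2 differed by -1.78, a call that ended without either shEzh2.556 array. Mt2, a metallothionein, was 11.00 and 10.10 against 8.82 and 8.94 (-1.67), and Cdh17, a cadherin, 8.56 and 9.11 against 6.57 and 6.84 (-2.14).

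Lymphomas with one hairpin also differed from each other. Between the shEzh2.781 arrays the ligand Bmp4 was 9.58 in array 1 and 7.44 in array 2, and As3mt, on chromosome 19, was 5.95 and 7.78. Between the shEzh2.556 arrays the joining chain Jchain was 8.41 and 6.96. The light chain segment Igkv5-43 was 5.82 and 8.02 with shEzh2.781 and 4.79 and 3.88 with shEzh2.556. Between hairpins it was called higher with shEzh2.781. As an immunoglobulin segment it was left out of the ranking of leading genes. Probe sets not assigned to 1 gene were fitted together with the 19190 genes, with p-values adjusted over all of these rows. In that fit 1 of 1621 with several symbols was higher with shEzh2.556 and 3 of 12102 with none were higher with shEzh2.781. These counts come from another fit than the 10.5% called among all genes tested, so they cannot be set against that share.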
